A study of Mus musculus with 2 samples.

Results

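The interleukin-1 (IL-1) family and inflammasome genes described here were 9 genes taken by symbol from the 31053 entries of the deposited gene table. They were the agonists Il1b and Il1a, the receptor antagonist Il1rn, the decoy receptor Il1r2, the cytokine Il18 with its binding protein Il18bp, and the inflammasome components Nlrp3, Pycard and Casp1. Each symbol matched 1 entry. Transcripts were counted as unique molecular identifiers (UMIs) in single cells by 3' RNA sequencing on the 10x Chromium platform. The diabetic library came from wound monocytes and macrophages of mice labelled Diabetic, and the non-diabetic library from those of mice labelled Non-diabetic. Both were taken from skin wounds on day 6 after injury and dissociated with enzymes, and each pooled the cells of 2 mice. The labels name neither the diabetic model nor the strains, nor any age, and they speak of mice per strain, so a strain difference cannot be told apart from diabetes. With 1 library per group there is no replicate check, no difference was tested, and intervals are 95% and cover counting error, not variation between cells or animals.

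IL-1 signalling starts when a tissue is injured. IL-1α is active as its precursor, whereas IL-1β and IL-18 are made as inactive precursors that caspase-1 cleaves once the sensor NLRP3 and the adaptor ASC (encoded by Pycard) have assembled an inflammasome. The receptor antagonist occupies the signalling receptor without activating it, IL-1R2 binds IL-1 without signalling, and IL-18BP holds IL-18 in solution. In mouse wounds, IL-1β from macrophages is known for sustaining inflammation. RNA counts show neither cleavage nor secretion.

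After filtering, 1755 diabetic and 1123 non-diabetic cells remained, with medians of 16314 and 14079 UMIs per cell. Mitochondrial UMIs had reached 10% in 20.2% of diabetic and 43.9% of non-diabetic barcodes, which were left out. The libraries shared 6 barcodes, of which 1 was kept in both. Monocyte markers summed to 5379 UMIs per 1000000 UMIs (CPM) in diabetic and 7954 CPM in non-diabetic cells, and macrophage markers to 9065 and 4327 CPM, so the labelled cell type was present in both. Other lists differed too. The 12 neutrophil markers summed to 4880 CPM in diabetic and 620 CPM in non-diabetic cells, with none and 2 of them at 0, and the 12 dendritic cell markers to 108 and 418 CPM with none at 0. The neutrophil sum is not a share of neutrophils: Mmp8, S100a8 and S100a9 were also 2-fold or more higher in the Orm1-led cluster described below. Cells with neutrophil markers numbered 32 diabetic and 5 non-diabetic. The 6 fibroblast markers summed to 18.0 and 238 CPM, and 10 immediate early and heat shock genes, chosen after the data were seen, to 8887 and 11328 CPM. The part of fibroblast RNA and of immediate early and heat shock genes in the results below was not tested.

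The 9 genes were first compared as the sum over all kept cells of each library. The receptor antagonist was higher in the diabetic library while the decoy receptor, the sensor and both agonists were lower. Il1rn reached 548 CPM in diabetic and 348 CPM in non-diabetic cells, a ratio of 1.57 (log2 0.65, interval 0.61 to 0.70). Il1r2 reached 39.7 CPM in diabetic and 124 CPM in non-diabetic cells, 3.13-fold lower (log2 -1.65, -1.75 to -1.54). These were the 2 genes of the 9 past 1.5-fold, and Il1rn, at a log2 ratio of 0.58, no longer was with TMM scaling or DESeq2 size factors. A lower value by that fold was seen in 1 of 9 members and in 12.9% of 12337 measured genes, and a higher one in 1 of 9 and in 18.7%, so neither share stood clear of the background. A gene counted as measured with 20 UMIs or more over both libraries.

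The agonists differed less between libraries. Il1b had 141932 UMIs or 4663 CPM in diabetic cells and 84174 UMIs or 5455 CPM in non-diabetic cells (log2 -0.23, -0.24 to -0.21). Il1a had 188 CPM in diabetic and 248 CPM in non-diabetic cells (log2 -0.40, -0.46 to -0.34). Nlrp3, the sensor, had 261 CPM in diabetic and 374 CPM in non-diabetic cells (log2 -0.52, -0.57 to -0.47). These 3 intervals lay below 0, and the log2 ratio had a median of 0.12 over the measured genes, so each was lower against that shift as well. The mostly non-diabetic Sema3c-led cluster described below held 50.8% of non-diabetic Il1b and 86.5% of non-diabetic Il1a UMIs. Leaving it out takes these UMIs almost only from that library, and the direction of both agonists then reversed. Without that cluster the log2 ratio was 0.36 for Il1b, 2.05 for Il1a and close to 0, at -0.0061, for Nlrp3. Without the Orm1-led cluster instead it was -2.22 for Il1a. Without neutrophil-like cells it was -0.24 for Il1b. Casp1, the protease, had 49.8 CPM in diabetic and 58.5 CPM in non-diabetic cells (log2 -0.23, -0.35 to -0.11), and Pycard, the adaptor, 213 and 246 CPM (log2 -0.21, -0.27 to -0.15). Il18 had 54.4 CPM in diabetic and 48.8 CPM in non-diabetic cells (log2 0.16, 0.03 to 0.28), and its log2 ratio was -0.0066 without the dendritic cell-like cluster. Its binding protein Il18bp was near the limit of detection, with 128 UMIs in diabetic and 55 in non-diabetic cells (4.21 and 3.56 CPM), and its interval spanned 0 (log2 0.23, -0.23 to 0.72). The median of the 9 log2 ratios was -0.23. With dendritic-like and neutrophil-like clusters left out, Il1a, Il1r2 and Nlrp3 were past 1.5-fold lower (3 of 9, against 12.2% of genes) and none higher (0 of 9, against 21.5%), and Il1rn had a log2 ratio of 0.50. In such sums fewer cells of a type and less RNA per cell cannot be told apart.

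**Figure D1:**
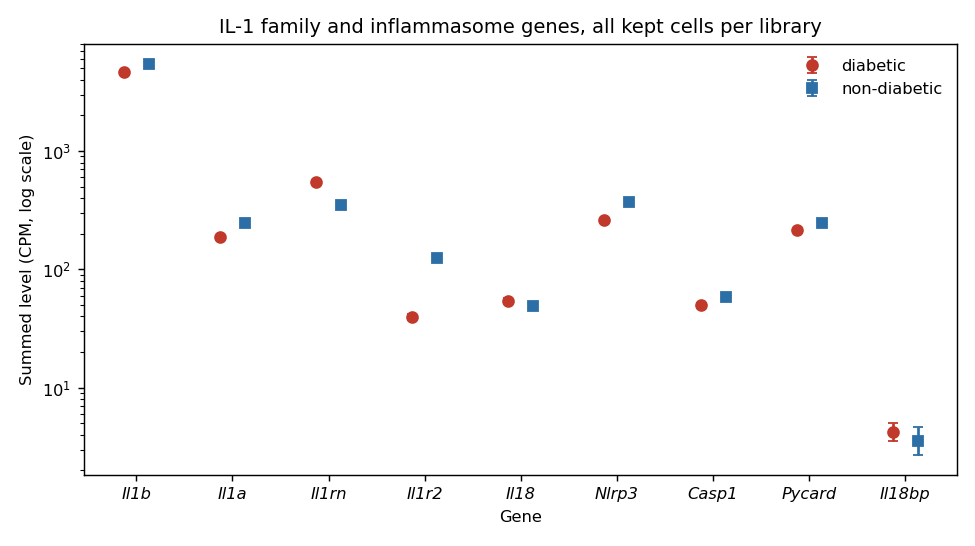
Summed level of each of the 9 genes in the diabetic library (left of each pair) and the non-diabetic library (right), in CPM on a log axis, with 95% Poisson intervals for counting error. Il1rn is higher in diabetic cells (548 against 348 CPM) and Il1r2 lower (39.7 against 124 CPM), while Casp1, Pycard and Il18 lie close together.

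The same order appeared in the shares of cells with a UMI, after each cell was thinned to 2000 UMIs. Il1rn was seen in 42.5% of thinned diabetic and 33.5% of thinned non-diabetic cells (75.2% and 62.5% unthinned). Il1r2 was seen in 6.18% of diabetic and 11.2% of non-diabetic cells (17.3% and 32.4% unthinned). Nlrp3 was seen in 32.7% of diabetic and 42.4% of non-diabetic cells (68.0% and 75.2% unthinned). Il1b was seen in most cells of both libraries, 69.8% of diabetic and 75.6% of non-diabetic cells (88.4% and 89.5% unthinned). Over 20 random thinnings, Il1rn was higher in diabetic cells in 20, and Il1b, Il1a, Il1r2 and Nlrp3 were lower in 20. Casp1 and Pycard changed order between draws, with lower diabetic shares in 11 and 9 of them. Free RNA could not be gauged from cells that lack these genes, because no diabetic and 2 non-diabetic cells carried 5 or more UMIs of other lineages without a myeloid marker. As a stand-in, shares were taken from clusters of ordinary depth with 20 or more cells of the library. The lowest unthinned share was 65.9% for Il1b in diabetic and 67.4% in non-diabetic cells, but 3.03% and 5.79% for Il1a. For Il1rn, among the clusters described here, it was 56.9% in diabetic (Ighm-led) and 33.9% in non-diabetic cells (Klrd1-led). Shares of Il1b and Il1rn are therefore not read as expression here. The part of free RNA in the Il1rn differences, here and within clusters below, was not tested.

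Level per cell was spread widely. The lower and upper quartiles of Il1b were 184 and 7471 CPM in diabetic cells and 327 and 7307 CPM in non-diabetic cells. The 10% of cells with most UMIs of a gene held 44.8% of Il1b UMIs in the diabetic library and 47.0% in the non-diabetic one. For Il1a such cells held 80.5% in diabetic and 82.9% in non-diabetic cells, and for Il1r2 89.4% and 78.1%. The agonist Il1a and the decoy receptor thus came from a minority of cells, which the clusters place.

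Clusters were built from both libraries without the 9 genes or their wider pathway, so that these values did not shape them. Each of the 16 clusters is called here by its leading gene, and 4 held 30 or more cells of each library. The Orm1-led cluster (Orm1, Stfa3, Fst) held 289 diabetic and 0 non-diabetic cells, the Fcor-led one (Fcor, Rgcc, Ifitm1) 147 and 1, and the Il6-led one (Il6, Cd36, Acod1) 110 and 10. The Sema3c-led cluster (Sema3c, Inhba, Rdh12) held 6 diabetic and 337 non-diabetic cells, and the Oasl1-led one (Oasl1, Mx1, Rsad2, classical monocyte-like) 9 and 209. The Gas6-led and Cd163-led clusters were macrophage-like, the Klrd1-led one conventional dendritic cell-like and the small Mrgpra2b-led one neutrophil-like. The clusters led by Orm1, Fcor, Il6, Sema3c, H2-Aa, Ighm, Ctsk, Hspa1b, Ccl24 and Lars2 met no name. A cluster of 1 library may be that library and not a cell type.

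Il1b was highest in the Fcor-led cluster of the diabetic library, at 13995 CPM, and lowest in the macrophage-like Gas6-led cluster, at 224 CPM, a span of 62.5-fold. The Fcor-led cells supplied 21.8% of diabetic Il1b UMIs from 147 cells, and the Orm1-led cells 29.9%. Below the top, the H2-Aa-led, Orm1-led and Il6-led clusters were neighbours in order, at 7592, 7490 and 7469 CPM with overlapping counting intervals. In the non-diabetic library Il1b was highest in the Sema3c-led cluster, at 10759 CPM, which supplied 50.8% of its UMIs. The H2-Aa-led cells followed at 8961 CPM and the Oasl1-led cells at 6903 CPM, and the low-depth Lars2-led cluster was last at 371 CPM.

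Il1a was concentrated in 1 cluster of each library. In diabetic cells the Orm1-led cluster had 778 CPM and 76.9% of Il1a UMIs, followed by the Il6-led cluster at 350 CPM with 12.2%. In non-diabetic cells the Sema3c-led cluster had 833 CPM and 86.5%, followed by the Oasl1-led cluster at 124 CPM with 9.46%. The span between highest and lowest cluster was 462-fold in diabetic and 180-fold in non-diabetic cells, wider than for Il1b in both. The diabetic Fcor-led cells, highest in Il1b, had 81.9 CPM of Il1a, so the cluster order of the agonists was not the same. Per 100 Il1b UMIs, the diabetic Orm1-led cells carried 10.4 Il1a UMIs and the non-diabetic Sema3c-led cells 7.74.

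**Figure D2:**
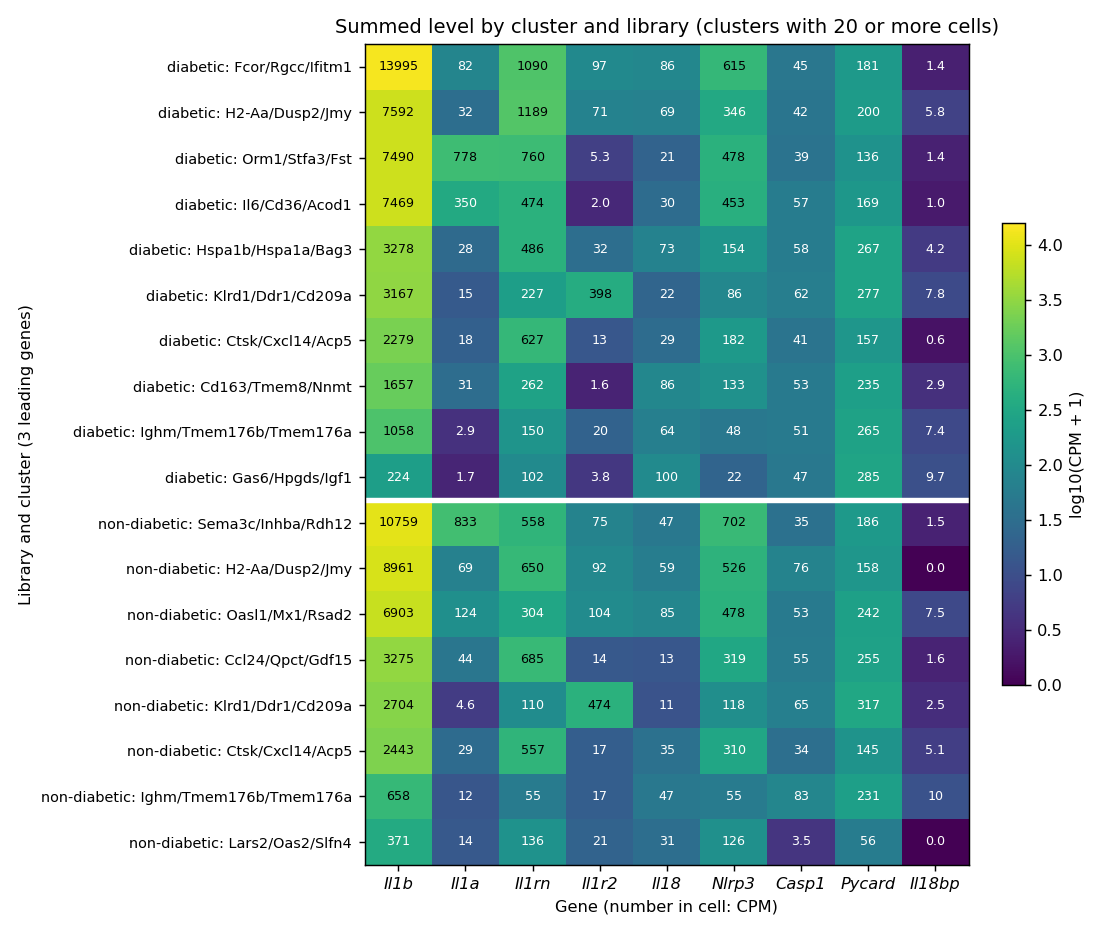
Heat map of the 9 genes (columns) by library and cluster (rows, diabetic above non-diabetic, at least 20 cells each, named by 3 leading genes), coloured by log10(CPM + 1) with the CPM printed in each cell. Il1b and Nlrp3 are high in the Orm1-led, Il6-led and Fcor-led diabetic clusters and the Sema3c-led and Oasl1-led non-diabetic clusters. They are also high in the H2-Aa-led cluster of both libraries. Il1a is highest in the Orm1-led and Il6-led diabetic and the Sema3c-led non-diabetic clusters. It is lower in the Fcor-led (81.9 CPM), Oasl1-led (124 CPM) and H2-Aa-led cells (32.1 CPM diabetic, 69.0 CPM non-diabetic). Il1r2 is highest in the Klrd1-led cluster of both libraries.

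Nlrp3 followed the agonists across clusters. It was highest in the Fcor-led cluster of diabetic cells at 615 CPM, ahead of the Orm1-led cluster at 478 CPM, and in the Sema3c-led cluster of non-diabetic cells at 702 CPM. It was lowest among diabetic clusters in the Gas6-led macrophage-like cells, at 21.9 CPM, a 28.1-fold span. Over the 20 cluster-by-library sums, which share 2 libraries, the Pearson correlation of log2(CPM + 1) with Nlrp3 was 0.88 for Il1b and 0.85 for Il1a, and it was 0.76 between Il1b and Il1a. The antagonist Il1rn also moved with them, at 0.79 with Il1b, 0.66 with Il1a and 0.81 with Nlrp3. These are descriptions. The promoters of the agonists and the sensor are shown as a selection from the genes that moved together across clusters. They run 5' to 3' on the gene's strand from 250 bases before to 50 bases after the start site (RefSeq, GRCm38.p6), and capitals mark motif matches.
Il1b, chr2:129371090-129371389, minus strand: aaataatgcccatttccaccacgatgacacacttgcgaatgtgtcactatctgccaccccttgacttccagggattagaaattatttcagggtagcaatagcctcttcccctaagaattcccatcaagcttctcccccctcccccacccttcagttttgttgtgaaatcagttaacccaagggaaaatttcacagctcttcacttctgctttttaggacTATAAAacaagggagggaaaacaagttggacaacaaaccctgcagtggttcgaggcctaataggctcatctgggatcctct
Il1a, chr2:129309923-129310222, minus strand: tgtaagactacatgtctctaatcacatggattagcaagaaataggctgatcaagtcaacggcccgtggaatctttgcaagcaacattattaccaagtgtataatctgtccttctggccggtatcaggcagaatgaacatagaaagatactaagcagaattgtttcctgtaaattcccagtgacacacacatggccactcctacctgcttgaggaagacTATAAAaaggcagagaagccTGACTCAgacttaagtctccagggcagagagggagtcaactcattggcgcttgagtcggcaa
Nlrp3, chr11:59541319-59541618, plus strand: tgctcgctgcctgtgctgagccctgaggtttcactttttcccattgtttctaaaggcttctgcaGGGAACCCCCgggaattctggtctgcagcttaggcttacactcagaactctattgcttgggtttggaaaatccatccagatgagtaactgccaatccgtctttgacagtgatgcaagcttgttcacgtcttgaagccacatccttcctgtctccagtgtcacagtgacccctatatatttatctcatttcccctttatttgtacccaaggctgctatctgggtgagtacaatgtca
3 motifs were searched on both strands: the TATA box TATAAA, the AP-1 motif TGANTCA and the kappaB motif. The Il1b window holds TATAAA 31 bases before the start site. The Il1a window holds TATAAA 32 bases and the AP-1 motif 12 bases before it, with no shared bases. This Nlrp3 window, 1 of 2 listed for the gene, holds a kappaB match 186 bases before its start, and the other holds none of the motifs. Among 32851 mouse promoter windows of the same length, 13.6% hold TATAAA, 7.81% the AP-1 motif and 4.51% the kappaB motif. Of the remaining genes, Il1rn has an AP-1 match 141 bases before its first listed start and TATAAA after another, and Il18 has TATAAA 175 bases before its start. The windows of Il1r2, Il18bp, Pycard and Casp1 hold none of these letters. A match is a description, not a binding site.

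The genes lie on several chromosomes of mm10 (GENCODE M21 positions). Il1b (chr2:129364570-129371139) and Il1a (chr2:129299610-129309972) are neighbours on the minus strand of chromosome 2, and Il1rn (chr2:24336853-24351494) lies far from them. Antisense transcript Il1bos overlaps an Il1b exon but had 53 diabetic and 29 non-diabetic UMIs. Numa1 shares exon sequence with Il18bp on the other strand and had 873 diabetic and 559 non-diabetic UMIs over all barcodes. Whether counting used strand is not given in the sources used here, so the few Il18bp counts are uncertain.

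Il1rn, the antagonist, had a narrower span across clusters than the agonists. It was highest in diabetic cells of the H2-Aa-led cluster at 1189 CPM, then in the Fcor-led cluster at 1090 CPM and the Orm1-led cluster at 760 CPM. In non-diabetic cells it was highest in the Ccl24-led cluster at 685 CPM, with overlapping intervals for the H2-Aa-led cluster at 650 CPM. Its span was 11.7-fold in diabetic and 12.4-fold in non-diabetic cells. The diabetic Gas6-led cells were lowest in Il1rn, at 102 CPM, as they were in Il1b.

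Set against its agonist, there were 11.7 Il1rn UMIs per 100 Il1b UMIs in the diabetic library and 6.37 in the non-diabetic library, a ratio of 1.84. Among diabetic clusters the Il6-led carried the fewest, at 6.34, followed by the Klrd1-led at 7.16 and the Fcor-led at 7.79, and the Gas6-led the most, at 45.5. Among non-diabetic clusters the Klrd1-led carried 4.05, the Oasl1-led 4.41 and the Sema3c-led 5.19, and the low-depth Lars2-led the most, at 36.8. Among clusters holding 20 or more cells of each library and described here, the diabetic value was higher in 4 of 4. It was 15.7 in diabetic and 7.26 in non-diabetic H2-Aa-led cells, and 14.2 and 8.38 in Ighm-led cells. The Ctsk-led cells came closest, with 27.5 in diabetic and 22.8 in non-diabetic cells.

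**Figure D3:**
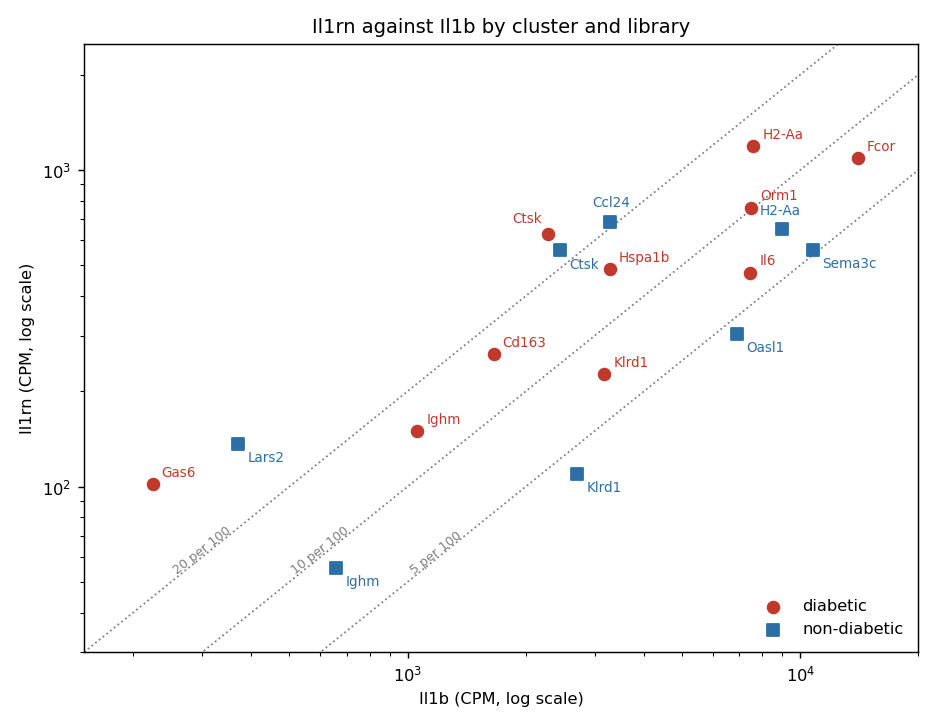
Il1rn (vertical) against Il1b (horizontal) by cluster and library (20 or more cells), both in CPM on log axes. Dotted lines mark 5, 10 and 20 Il1rn UMIs per 100 Il1b UMIs. Diabetic points (circles) lie higher than non-diabetic points (squares) of the same cluster relative to these lines, by the widest margin in the H2-Aa-led cluster.

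In single cells thinned to 2000 UMIs, Il1rn was seen in 53.3% of diabetic and 39.6% of non-diabetic cells with an Il1b UMI. Without one it was seen in 17.8% of diabetic and 14.7% of non-diabetic cells. Nlrp3 was seen in 43.5% of diabetic and 51.6% of non-diabetic cells with an Il1b UMI and in 7.65% and 14.0% without. Il1a was seen in 21.4% of diabetic and 22.5% of non-diabetic cells with an Il1b UMI, and in 2.87% and 2.26% without. These shares are descriptions: no background share was at hand, so an Il1b or Il1rn UMI is not read as expression of the gene by that cell.

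Il1r2, the decoy receptor, had a different distribution. The dendritic cell-like Klrd1-led cluster was highest in both libraries, at 398 CPM in diabetic and 474 CPM in non-diabetic cells. It supplied 33.7% of diabetic Il1r2 UMIs from 56 cells and 58.8% of non-diabetic ones from 121 cells. Among diabetic clusters the Fcor-led one followed at 96.8 CPM, and the Orm1-led, Il6-led and Cd163-led ones had 5.30, 2.004 and 1.58 CPM. In the non-diabetic library the Oasl1-led cells had 104 CPM and the Sema3c-led cells 75.04 CPM. Among the Il1b-rich clusters, the Orm1-led and Il6-led diabetic cells were thus low in Il1r2, while the diabetic Fcor-led and H2-Aa-led cells, at 96.8 and 71.5 CPM, lay near the non-diabetic Sema3c-led, H2-Aa-led (92.0 CPM) and Oasl1-led cells. Without the dendritic cell-like cluster the log2 ratio was -1.15, and without dendritic-like and neutrophil-like clusters -1.30. Cells with neutrophil markers, 32 diabetic and 5 non-diabetic, held 17.3% of diabetic and 1.25% of non-diabetic Il1r2 UMIs but 3.20% and 0.868% of Il1b UMIs. The neutrophil-like Mrgpra2b-led cluster held 76 diabetic Il1r2 UMIs, 6.29% of that library's, in 14 cells. Its median was 4738 UMIs per cell. The first rank of the Klrd1-led cluster therefore does not extend to neutrophil-like cells, which were too few for a level here.

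Casp1 and Pycard, which act downstream of the sensor, did not follow it across clusters. In the Klrd1-led cells Casp1 had 61.6 CPM in diabetic and 64.7 CPM in non-diabetic cells, and Pycard 277 and 317 CPM. Both were lowest among diabetic clusters in the Orm1-led cells, where Il1a was highest, at 38.8 CPM for Casp1 and 136 CPM for Pycard. Casp1 and Pycard correlated at 0.85 over the 20 sums, while Nlrp3 correlated with them at -0.11 and -0.38. The sums include the low-depth Lars2-led cluster, with 1 Casp1 and 16 Pycard UMIs. By rank (Spearman) the 3 values were 0.69, -0.37 and -0.58.

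Il18 did not follow Il1b. It was highest in diabetic cells of the macrophage-like Gas6-led cluster at 99.8 CPM, where Il1b was lowest, followed by the Fcor-led cluster at 86.4 CPM and the Cd163-led cluster at 85.8 CPM. The lowest diabetic value was 20.8 CPM in the Orm1-led cells. In non-diabetic cells it was highest in the Oasl1-led cluster at 84.6 CPM and lowest in the Klrd1-led cluster at 10.9 CPM. Over the 20 sums Il18 correlated with Il1b at -0.06. There were 7.73 Il18bp UMIs per 100 Il18 UMIs in diabetic and 7.30 in non-diabetic cells, with overlapping intervals.

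The libraries were next compared within 3 clusters holding at least 30 cells of each. Il1rn was higher in diabetic cells in 3 of 3, and Nlrp3 lower in 3 of 3. For Il1rn the log2 ratios were 1.42 (0.93 to 2.004) in Ighm-led, 1.05 (0.79 to 1.31) in Klrd1-led and 0.17 (0.00 to 0.34) in Ctsk-led cells. For Nlrp3 they were -0.78 (-1.01 to -0.53) in Ctsk-led, -0.45 (-0.82 to -0.10) in Klrd1-led and -0.23 (-0.76 to 0.38) in Ighm-led cells. In the dendritic cell-like Klrd1-led cells, for example, Il1rn had 227 CPM in diabetic and 110 CPM in non-diabetic cells, and Nlrp3 86.1 and 118 CPM.

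Other members took both directions. Il1b was higher in diabetic cells by 0.68 (0.53 to 0.84) in Ighm-led and 0.23 (0.17 to 0.29) in Klrd1-led cells, and lower in Ctsk-led cells, at -0.10. Il1r2 in the dendritic cell-like cluster, its main source, differed by -0.25 (-0.42 to -0.09), against -1.65 over all cells. In Ighm-led and Ctsk-led cells its interval spanned 0, and those of Pycard spanned 0 in all 3. Casp1 was lower in diabetic Ighm-led cells, at 50.9 CPM against 82.7 CPM (log2 -0.71, -1.16 to -0.21), with intervals spanning 0 elsewhere.

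Counted by 1.5-fold, 3 of 8 measured members were higher and 0 lower in Klrd1-led cells, against 9.52% and 16.8% of all genes measured there. In Ighm-led cells 2 of 8 were higher and 1 lower, against 15% each way. In Ctsk-led cells 0 of 8 were higher and 2 lower, against 19.9% and 18.6%. In Ighm-led cells the higher ones were Il1rn and Il1b, the agonist with 3988 diabetic and 382 non-diabetic UMIs. In Klrd1-led cells they were Il1rn, Il1a and Il18, of which Il1a (15 diabetic, 11 non-diabetic UMIs) and Il18 (23 and 26) rested on few UMIs.

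**Figure D4:**
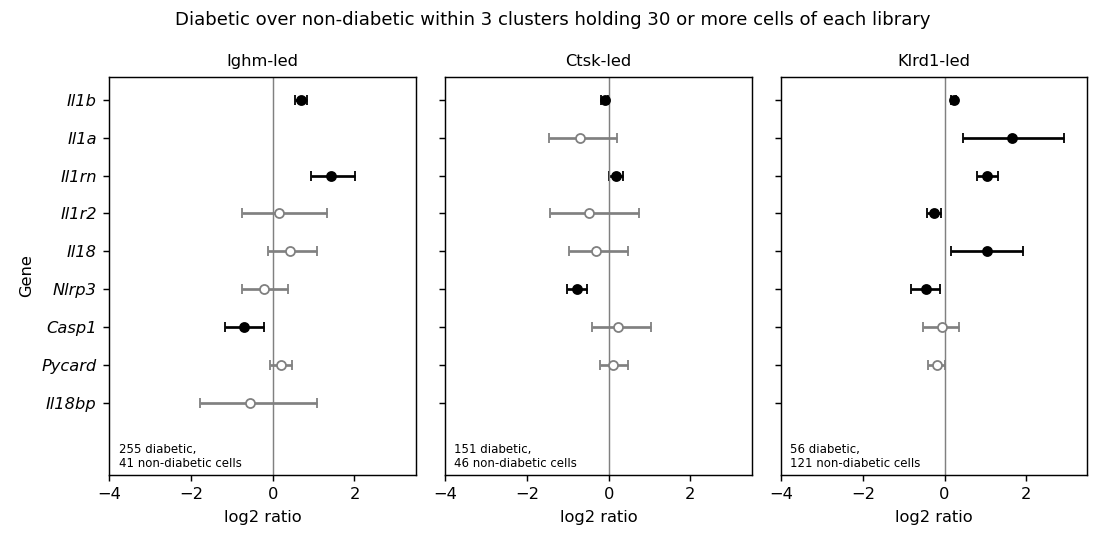
Log2 ratio of summed CPM, diabetic over non-diabetic, of each gene (rows) in 3 clusters holding 30 or more cells of each library, with 95% counting intervals; open grey points have an interval that spans 0, and genes under 20 UMIs are not drawn. Il1rn lies right of 0 and Nlrp3 left of 0 in each panel, while Il1b lies on both sides.

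Genes whose levels across the 20 cluster-by-library sums were most like each of 4 members were ranked among 4529 genes by Pearson's r of log2(CPM + 1). For Il1b these were Plek and Chd1 (0.90 each), Cdkn1a and Pde4b (0.89 each) and Nlrp3 (0.88). For Nlrp3 they were Ptgs2 (0.97), Tnfaip3 (0.96), Rab11fip1 (0.95), Cdkn1a and Mcl1 (0.94 each). For Il1rn they were Ppp4r2 (0.88), Irs2 (0.85), and Tnfaip3, Txnrd1 and Tuba4a (0.84 each). For Il1r2 they were Spint1 (0.87), Jaml (0.86), Lmnb1 (0.85), Cdkn1b (0.80) and Siglecg (0.79), none of which was on the other lists. The sums share libraries and clusters of unequal depth.

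The wider pathway was followed in a list of 63 further genes, of which 54 were measured. Of these, 16 were 1.5-fold or more lower and 8 higher in the diabetic library, against 12.9% and 18.7% of all measured genes, and 30 lay between. Their median log2 ratio was -0.22, beside 0.12 for all genes. By role, 2 of 3 measured further ligands were higher and 1 lower, 2 of 6 receptors each way, and 1 of 9 sensors lower. Of 17 priming and signalling genes 6 were lower and 1 higher, of 8 NLRP3 regulators 2 each way, of 5 caspase and pore genes 1 lower, and of 6 proteases and their inhibitors 3 lower and 1 higher.

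Among ligands and receptors, Il1f9 (IL-36γ, another IL-1 family agonist) had 33.6 CPM in diabetic and 4.34 CPM in non-diabetic cells (log2 2.94). Il1r1, the signalling receptor for IL-1, had 33.4 CPM in diabetic and 3.89 CPM in non-diabetic cells (log2 3.09, 2.73 to 3.51). Both came mostly from the Orm1-led diabetic cells, which supplied 77.8% of diabetic Il1f9 and 67.0% of diabetic Il1r1 UMIs. Within the clusters holding 30 or more cells of each library both rested on few UMIs, and Il1r1 in Ctsk-led cells ran the other way, at 5.27 CPM in diabetic and 16.9 CPM in non-diabetic cells (18 and 10 UMIs, log2 -1.71, -2.87 to -0.40). The coreceptor Il1rap had a log2 ratio of -0.19. Mmp9, a protease that can cleave IL-1β, had 130 CPM in diabetic and 1.81 CPM in non-diabetic cells (log2 6.14). The Ctsk-led cluster supplied 40.3% of diabetic Mmp9 UMIs. Within it Mmp9 had 468 CPM in diabetic and 10.1 CPM in non-diabetic cells (1598 and 6 UMIs). Ighm-led cells had 57 diabetic and 0 non-diabetic UMIs, and Klrd1-led cells 0 in both.

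The signalling genes included inhibitors on both sides. Irak3, which restrains receptor signalling, had 110 CPM in diabetic and 45.5 CPM in non-diabetic cells (log2 1.28). Within the clusters described, its log2 ratio was 0.69 (0.07 to 1.44) in Ighm-led cells, but -0.42 in Ctsk-led and -0.52 in Klrd1-led cells with intervals that spanned 0. Nfkbia, the NF-κB inhibitor that NF-κB itself induces, had 1527 CPM in diabetic and 3648 CPM in non-diabetic cells (log2 -1.26). Irak2, a member of the receptor complex, had 36.2 CPM in diabetic and 96.2 CPM in non-diabetic cells (log2 -1.41). Nfkbiz had a log2 ratio of -0.90. Nfkbia was lower in diabetic cells of all 3 of these clusters, with log2 ratios of -0.99 in Ighm-led, -1.12 in Ctsk-led and -0.53 in Klrd1-led cells. The immediate early and heat shock genes above moved the same way over all cells, at 8887 CPM in diabetic and 11328 CPM in non-diabetic cells, and their part here was not tested. Irak1 and Nfkb2 had log2 ratios of 0.48 and 0.16.

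Of the NLRP3 regulators, P2rx7, the ATP-gated channel, had 29.5 CPM in diabetic and 14.7 CPM in non-diabetic cells. Within the clusters described its log2 ratio was 0.44 in Ighm-led, -0.26 in Ctsk-led and 0.67 in Klrd1-led cells, with intervals that spanned 0. Txnip had a log2 ratio of 0.71 and the NLRP3 partner Nek7 0.48. Trim30a had 67.5 CPM in diabetic and 150 CPM in non-diabetic cells (log2 -1.15), and Brcc3 a ratio of -0.10. The sensors Naip2, Aim2 and Mefv had log2 ratios of -0.22, -0.45 and -0.58; Naip2 has near-identical relatives, so its counts are uncertain. Gsdmd, which forms the pore of pyroptosis, had 55.8 CPM in diabetic and 72.1 CPM in non-diabetic cells (log2 -0.37). Casp4, Casp8 and Ninj1 had log2 ratios of -0.45, -0.24 and 0.16. Prtn3, Capn1 and Capn2 had -1.15, 0.03 and 0.05.

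**Figure D5:**
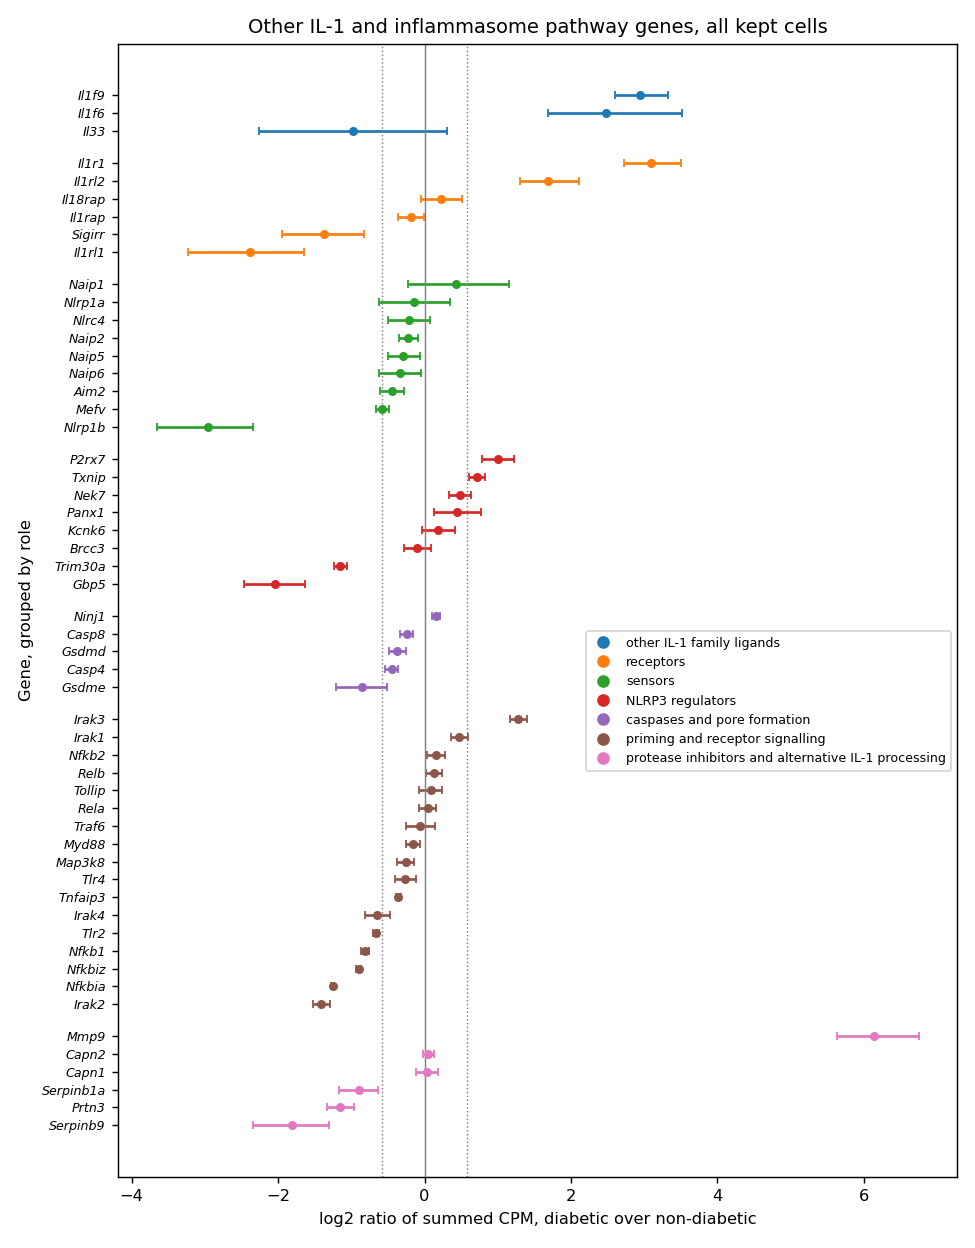
Log2 ratio of summed CPM, diabetic over non-diabetic, for the measured genes of the wider pathway list, grouped by role, with 95% counting intervals and dotted lines at 1.5-fold. Il1r1, Il1f9 and Mmp9 lie farthest right, and the priming genes Nfkbia and Irak2 lie left of the lower line.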

How the data were processed

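The authors deposited, per library, raw UMI counts per gene and barcode, made with Cell Ranger 3.0.2 per the file headers, and, per the submitters' processing notes, on build mm10. The sources used here give neither annotation release nor strand use. Groups follow the disease state in the labels. Kept cells had 500 or more genes and less than 10% of UMIs from mitochondrial genes. Scrublet marked 4 diabetic and 2 non-diabetic cells, too few to have worked, and these cells were kept. The 9 genes, the wider list and the markers were chosen with earlier results of these data known.

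Counts were summed over cells and divided by the library's or cluster's total (CPM). Log2 ratios have 0.5 added to each sum, with conditional exact binomial intervals; those of CPM are exact Poisson and those of shares Clopper-Pearson. Clustering used scanpy 1.11.5 and leidenalg 0.10.2 (2000 variable genes, 30 components, 15 neighbours, resolution 1), no batch correction, and left out the 9 genes and the wider list. A cluster was named when at least 3 markers, and 50% of a list, were at 2-fold or more in at least 10% of its cells, a rule set after the data were seen. Pathway genes were named by rule: at 20 CPM or more, up to the 3 highest and 3 lowest log2 ratios of each role. For likeness, genes at 50 CPM or more in a sum were ranked. Alternative scalings used edgeR 4.0.16 and DESeq2 1.42.0 in R 4.3.3. Intervals were checked on simulated counts. Total counts were 31730014 in the diabetic and 17559986 in the non-diabetic library. The values of 1 cluster are not reported here, though its cells are in every sum over a library and in the equal-weight alternative. Alternatives covered cell filters, cell types, clusters, scaling, depth and the fold.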

Additional observations from a re-analysis of the deposited data

Results flagged for a closer look

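Within 3 clusters shared by the libraries, Il1b had counting intervals on both sides of 0, in opposite directions in different clusters, and so had Il1a if a value under 20 UMIs is counted. The difference between clusters was not tested, and each value compares 1 diabetic with 1 non-diabetic library. Il1b had log2 ratios of 0.68 in Ighm-led and 0.23 in the dendritic cell-like Klrd1-led cells, against -0.10 in Ctsk-led cells. Il1a had 1.65 in Klrd1-led cells (15 diabetic and 11 non-diabetic UMIs) and -2.08 in Ighm-led cells (11 and 7 UMIs). The value in Ighm-led cells is under the 20 UMIs asked of a measured gene.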

How the results depend on the processing

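No paired analysis was possible because each group had 1 library and the labels carry no replicate numbers. Of 16 alternatives, 4 were chosen after seeing the data: leaving out the dendritic cell-like cluster, the low-depth Lars2-led cluster, or both the Orm1-led and Sema3c-led clusters, and equal weight over the 4 shared clusters. Il1rn, Il1r2 and Nlrp3 kept their direction under all 16, with log2 ratios of 0.50 to 0.99, -1.89 to -0.19 and -0.82 to -0.01.

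Leaving out the mostly non-diabetic Sema3c-led cluster reversed the direction of Il1b. Its log2 ratio, -0.23, was 0.36 without that cluster, 0.14 without both clusters, 0.077 with equal weight and -0.44 without the Orm1-led cluster. It was -0.12 with no cell filter, -0.17 with up to 20% mitochondrial UMIs, -0.35 in the set without dendritic-like and neutrophil-like clusters, -0.24 without neutrophil-like cells, -0.34 without dendritic-like cells, -0.25 without the low-depth cluster, -0.30 with TMM or DESeq2 size factors, and -0.088 as a mean per cell and -0.095 thinned to 2000 UMIs. Il1a, -0.40, was 2.05 without the Sema3c-led cluster, -2.22 without the Orm1-led cluster, 0.18 without both and -0.016 with equal weight. Il18, 0.16, was -0.0066 without dendritic-like cells, -0.0047 in the set without dendritic-like and neutrophil-like clusters and -0.079 with equal weight. Casp1 was 0.14 thinned, and Pycard 0.021 thinned and 0.018 with equal weight. The cause was not tested.

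Il1rn, 0.65, was 0.77 with 1000 genes or more and less than 5% mitochondrial UMIs, 0.50 in the set without dendritic-like and neutrophil-like clusters, 0.51 without dendritic-like cells, 0.52 without the Orm1-led and 0.99 without the Sema3c-led cluster, 0.85 without both, 0.58 with TMM or size factors and 0.53 with equal weight. Il1r2, -1.65, was -1.30 in that set, -1.15 without dendritic-like and -1.89 without neutrophil-like cells, -1.39 without the Orm1-led and -1.83 without the Sema3c-led cluster, -1.11 as a mean per cell, -1.03 thinned and -0.19 with equal weight.

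Il1rn per 100 Il1b UMIs in diabetic cells, 11.7, was 11.4 with the stricter filter, 12.4 without the Orm1-led cluster, 12.5 without both clusters, 12.7 as a mean per cell, 12.3 thinned and 15.4 with equal weight. In non-diabetic cells it was 6.37, and 6.76 with no filter, 5.71 with the stricter and 6.61 with the looser one, 6.57 in the set or without dendritic-like cells, 7.60 without the Sema3c-led or both clusters, 7.59 as a mean per cell, 7.19 thinned and 11.3 with equal weight.

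The count of 1 gene higher became 0 in the set, without dendritic-like cells, without the Orm1-led cluster, with TMM or size factors and with equal weight, and 2 without the Sema3c-led cluster. The count of 1 lower became 3 in the set, without dendritic-like cells and without the Orm1-led cluster, and 2 with TMM or size factors. In the wider list, 16 lower became 9 thinned or at 2-fold, and 8 higher became 3 with equal weight. Of these alternatives, the share of all genes past the fold was taken only for the set, at 12.2% lower and 21.5% higher. The counts under the other alternatives have no such background and are not read as results about these genes. Il18bp, with 128 diabetic and 55 non-diabetic UMIs, was limited by depth.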

Other observations

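Further genes of the pathway list were singled out after their values were seen. Il1f6 (IL-36α) had 137 diabetic and 12 non-diabetic UMIs (log2 2.48), with 97.1% of the diabetic ones in the Orm1-led cluster. Il1rl2, the IL-36 receptor, had a log2 ratio of 1.68, with 59.8% of its diabetic UMIs in the Orm1-led cluster. Summed over all cells, ligand and receptor RNA of this branch were thus both higher in the diabetic library. Within clusters the Il1rl2 ratio rested on few UMIs, with intervals that spanned 0. It was 1.55 in Ighm-led (9 diabetic, 0 non-diabetic UMIs), 0.34 in Ctsk-led (25, 3) and -0.55 in Klrd1-led cells (2, 8). The IL-33 receptor Il1rl1 had -2.39 and Sigirr, an inhibitory receptor, -1.38. The sensor Nlrp1b had -2.96 and Gbp5, an interferon-induced GTPase, -2.04. Strain differences at such genes cannot be told apart from diabetes here.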
